A study of Mus musculus with 9 samples.

Results

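The miR-26 family was followed through brown, subcutaneous and visceral fat of obese mice. Its members were all rows of the deposited miRNA table whose names start with miR-26a or miR-26b, on either arm, and there were 5 of them among 1251 miRNAs. They are miR-26a-5p, miR-26b-5p, miR-26b-3p, miR-26a-1-3p and miR-26a-2-3p. Small RNA was sequenced from brown (BAT, interscapular), subcutaneous (SAT, inguinal) and visceral (VAT, epididymal) adipose tissue of male C57BL/6J mice, with 3 libraries per depot and 9 in all. Mice aged 5 to 6 weeks were acclimated before the diet began. Every mouse was then fed a high fat diet (HFD) for 11 weeks. It had 45% of energy from fat, 20% from protein and 35% from carbohydrate. The mice were fasted for 4 hours before tissue collection. No low fat group was sequenced, and depot was the only factor compared. Each library was whole tissue, and fewer cells of a type cannot be told apart from less miRNA per cell. The sample titles number the BAT libraries 12, 15 and 20, the SAT libraries 14, 19 and 20, and the VAT libraries 14, 17 and 20, and whether a shared number marks one mouse is not stated.

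A miRNA hairpin yields a strand from its 5p arm and one from its 3p arm. The strand that is loaded into Argonaute guides it to mRNAs through the seed (bases 2 to 8), and the other strand is mostly degraded. In the miR-26 hairpins the 5p strand is the main guide. The 3 miR-26 genes lie in introns of genes for small C-terminal domain phosphatases, which act on RNA polymerase II and on the retinoblastoma protein. In adipose biology the family is known for promoting the differentiation of human adipocytes and the thermogenic traits of such cells.

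The mature sequences are shown because the family is defined by them. They were read from RefSeq on GRCm38.p6, which matched all 5 members, and are written 5′ to 3′ with the seed in capitals.
miR-26a-5p: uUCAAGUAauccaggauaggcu
miR-26b-5p: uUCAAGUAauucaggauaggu
miR-26b-3p: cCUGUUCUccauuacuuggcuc
miR-26a-2-3p: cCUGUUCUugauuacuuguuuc
miR-26a-1-3p: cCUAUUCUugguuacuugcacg
Both guide strands share the seed UCAAGUA, and no other of the 1679 mature mouse miRNAs in RefSeq has it. With positions counted from 1 at the 5′ end and the base of miR-26a-5p written first, miR-26b-5p carries C11U and C21U and is 21 rather than 22 bases long. The first 10 bases are identical. How many mismatches the authors' mapping allowed is not given in the sources used here, so the assignment of single reads between both strands could not be checked. The passenger strands miR-26b-3p and miR-26a-2-3p share the seed CUGUUCU with each other and with miR-6932-3p and miR-7039-3p, while miR-26a-1-3p has its own seed, CUAUUCU.

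The hairpins are shown to place both arms, which are in capitals.
Mir26a-1: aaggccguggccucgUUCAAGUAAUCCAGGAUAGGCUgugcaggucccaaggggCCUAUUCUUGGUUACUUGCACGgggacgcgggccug
Mir26a-2: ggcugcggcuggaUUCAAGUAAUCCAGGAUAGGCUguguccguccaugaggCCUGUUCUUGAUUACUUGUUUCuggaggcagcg
Mir26b: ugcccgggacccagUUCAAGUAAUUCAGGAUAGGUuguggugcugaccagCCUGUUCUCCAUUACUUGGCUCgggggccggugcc
Mir26a-1 lies on the plus strand at chr9:119031796-119031885, in intron 5 of the principal transcript of Ctdspl. Mir26a-2 lies on the plus strand at chr10:126995530-126995613, in intron 5 of Ctdsp2. Mir26b lies on the plus strand at chr1:74394310-74394394, in intron 4 of the principal transcript of Ctdsp1. All 3 have the same orientation as their host gene (GENCODE M21, GRCm38). Mir26a-1 and Mir26a-2 give the same 5p strand, so miR-26a-5p is 1 row of the table and cannot be divided between its 2 genes. The transcripts of the host genes were not analysed here.

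The values are log2 of normalised counts. The lowest, 3.32, is the log2 of 10 and stands for miRNAs without a measured signal, and the highest is 18.67. At the 100 highest ranks the 9 libraries differed by 0.14 at most, so a value in this range reflects the rank of a miRNA within its library. The table holds no read counts and the study gives its depth only as an approximate average, so the depth of single libraries was not used here. Precision was judged from the 3 libraries of each depot. Some libraries stood apart in miRNAs of other tissues. The muscle miRNA miR-133a-3p ranged from 10.10 to 18.67 in BAT, highest in BAT 15 (17.20) and BAT 20 (18.67). In VAT it ranged from 9.85 to 17.20, highest in VAT 20. Among the BAT libraries, miR-133b-3p and miR-206-3p were also highest in BAT 15 (9.59 and 8.17) and BAT 20 (10.82 and 8.23). The muscle miRNA miR-1a-3p reached only 7.38 in BAT 20 and 3.83 in VAT 20. It was at the lowest value in all other libraries, BAT 15 included. SAT 20 had the highest miR-150-5p of all libraries, a lymphocyte miRNA, at 16.72. The muscle miRNAs miR-208b-3p and miR-499-5p were at the lowest value in every library. The summed level of 6 muscle miRNAs, nearly all of it miR-133a-3p, spanned 10.10 to 18.68 in BAT, 9.85 to 10.79 in SAT and 9.85 to 17.21 in VAT. That of 6 leukocyte miRNAs spanned 14.31 to 14.75 in BAT, 13.70 to 16.79 in SAT and 13.03 to 14.33 in VAT. In BAT and in SAT 20 this sum was nearly all miR-150-5p, which was at 14.31 to 14.75 in BAT. MiR-155-5p was at the lowest value in every library, and miR-223-3p and miR-142-3p were at that value in every BAT library. MiR-142-5p was at 4.66 to 6.89 in BAT and miR-146a-5p at 5.94 to 7.32. Both were lower in every BAT library than in every SAT and VAT library. The part of these cell types in the levels of the miR-26 strands was not tested. Of 3 miRNAs that mark brown fat, miR-193b-3p and miR-378a-3p were lower in VAT and in SAT than in BAT, and miR-365-3p did not pass the test in either comparison. Their summed level spanned 17.33 to 18.82 in BAT, 15.15 to 15.23 in SAT and 15.66 to 16.26 in VAT. BAT 20 had the lowest value of each of the 3 among the BAT libraries, and also the lowest miR-26a-5p and miR-26b-5p.

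MiR-26a-5p was the most abundant member and was among the most abundant miRNAs of adipose tissue. BAT 12, 15 and 20 had log2 values of 15.30, 15.56 and 14.75. SAT 14, 19 and 20 had 17.20, 16.90 and 16.90, and VAT 14, 17 and 20 had 17.20, 17.58 and 17.58. Every WAT library (SAT or VAT) lay above every BAT library, while SAT and VAT met at 17.20. By rank, miR-26a-5p held place 13 to 19 in BAT, 4 to 5 in SAT and 3 to 4 in VAT. With the lowest value subtracted, it made up 1.14% to 2.0% of the summed linear values in BAT, 5.10% to 6.26% in SAT and 6.26% to 8.15% in VAT. Since libraries had nearly equal values at equal ranks, these shares follow its rank. Averaged over the 9 libraries it ranked 4 among all miRNAs.

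MiR-26b-5p, the guide strand from the single Mir26b gene, was present at a much lower level and had the same order of depots. BAT 12, 15 and 20 had log2 values of 9.65, 9.35 and 8.96. SAT 14, 19 and 20 had 12.59, 12.50 and 12.40, and VAT 14, 17 and 20 had 12.89, 12.50 and 12.89. BAT did not overlap with either WAT, and SAT and VAT overlapped. By rank it held place 98 to 117 in BAT, 44 to 47 in SAT and 40 to 45 in VAT. BAT, SAT and VAT had SDs over their 3 libraries of 0.35, 0.09 and 0.22, below the median SD of the 343 tested miRNAs in each depot (0.47, 0.35 and 0.27). For miR-26a-5p the SDs were 0.41, 0.17 and 0.22, also below these medians.

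MiR-26b-3p, the passenger strand from the same hairpin as miR-26b-5p, was low throughout. BAT 12, 15 and 20 had log2 values of 5.53, 5.32 and 5.98. SAT 14, 19 and 20 had 4.55, 3.32 and 6.63, and VAT 14, 17 and 20 had 6.08, 6.19 and 6.30. SAT was the widest depot, with SAT 19 at the lowest value of the table and SAT 20 at the highest value of the strand. SAT 20 was the SAT library with the highest miR-150-5p, miR-142-3p, miR-142-5p and miR-146a-5p, while miR-223-3p was lowest there among the SAT libraries. The part of these leukocyte miRNAs in the value of miR-26b-3p was not tested. The VAT libraries lay just above those of BAT.

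The passenger strands of miR-26a were at or near the lowest value. MiR-26a-1-3p had the lowest value in all 9 libraries. MiR-26a-2-3p had it in 7 libraries and reached 3.83 in VAT 14 and 3.63 in VAT 20, which are linear values of 14.2 and 12.3 against the lowest of 10. Neither exceeded the lowest value in 3 or more libraries, so 3 of the 5 members were tested.

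**Figure D1:**
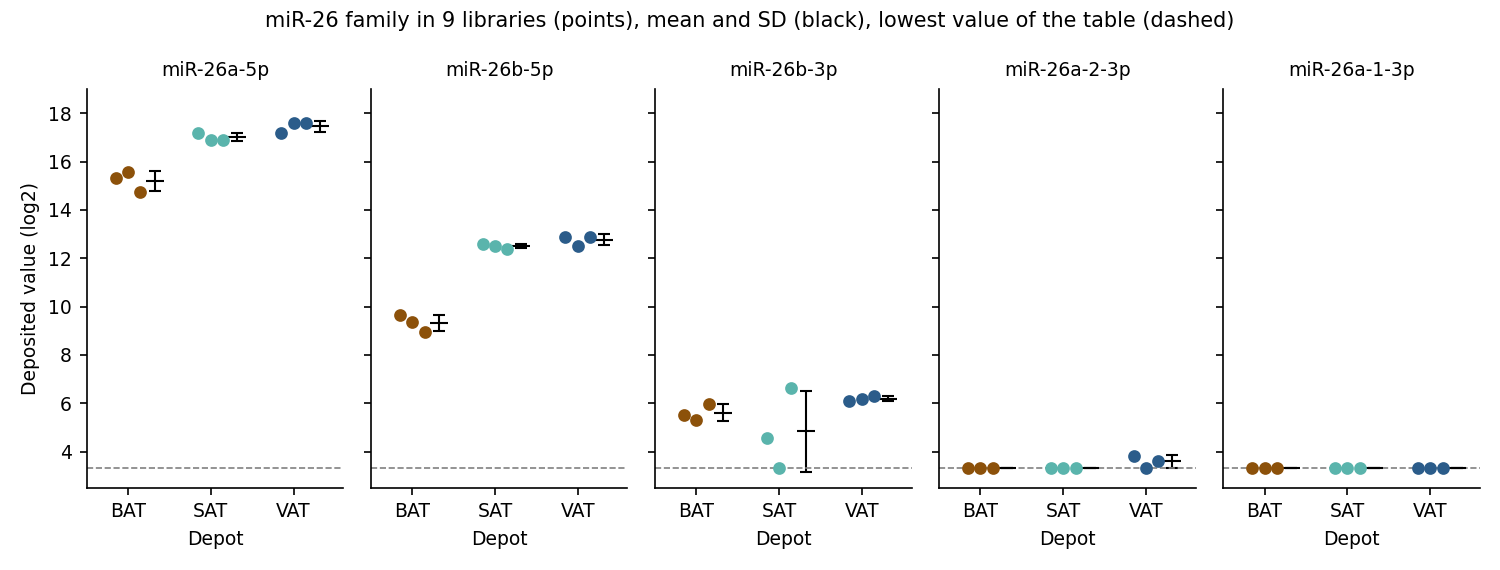
Deposited log2 values of the 5 miR-26 strands (vertical axis) in the 3 libraries of each depot (points, left to right by library number), with the mean and SD in black and the lowest value of the table as a dashed line. Both 5p strands are lower in every BAT library than in every SAT and VAT library, miR-26b-3p overlaps between SAT and the other depots, and the miR-26a passenger strands lie at or near 3.32.

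Each pair of depots was compared by a two-sided moderated test in limma, fitted on all 343 miRNAs that exceeded the lowest value in 3 or more of the 9 libraries, with Benjamini-Hochberg adjustment over the 343. VAT/BAT and SAT/BAT share the 3 BAT libraries and are not independent of each other.

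In VAT/BAT, both guide strands were higher in VAT, and the passenger strand did not pass the test. MiR-26b-5p was 10.9-fold higher, with a 95% interval of 6.89 to 17.2 (log2 fold change 3.45, SE 0.27, adjusted p = 0.000216). MiR-26a-5p was 4.77-fold higher, with an interval of 2.93 to 7.78 (log2 fold change 2.25, SE 0.29, adjusted p = 0.000922). These are 2 of the 3 tested members, in a comparison where 39.4% of all tested miRNAs were called higher in VAT and 26.8% lower. By the size of the absolute change, miR-26b-5p ranked 48 and miR-26a-5p 115 among the 343. The log2 fold change of miR-26b-3p was 0.58 with an interval of -0.03 to 1.20 (SE 0.25, adjusted p = 0.0860). Its VAT and BAT libraries did not overlap, as was the case for 72.0% of tested miRNAs. Without BAT 20 its log2 fold change was 0.77 and it passed the threshold (adjusted p = 0.0190), and without the 3 libraries numbered 20 the change was 0.71 (adjusted p = 0.0385).

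In SAT/BAT the picture of the guide strands was alike. MiR-26b-5p was 9.05-fold higher in SAT (interval 6.28 to 13.1), a log2 difference of 3.18 (SE 0.20, adjusted p = 0.000403). MiR-26a-5p was 3.49-fold higher (interval 2.24 to 5.45), a log2 difference of 1.80 (SE 0.25, adjusted p = 0.00502). Of all tested miRNAs, 22.4% were called higher in SAT and 18.1% lower, and the libraries did not overlap for 52.5%. MiR-26b-3p overlapped between the depots, at -0.78 with an interval of -3.13 to 1.58 (SE 0.90, adjusted p = 0.525). Its value rested on single SAT libraries, with -1.67 without SAT 20 (adjusted p = 0.0790) and -0.02 without SAT 19.

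In VAT/SAT 0 of the 3 tested members passed the threshold in limma, 1 had an unadjusted p under 0.05, and 0 passed in the test without moderation (adjusted p = 0.166 to 0.425). The share of tested miRNAs called was 8.45% higher in VAT and 7.58% lower, and 39.4% did not overlap. The log2 fold change of miR-26a-5p was 0.45 with an interval of 0.04 to 0.87 (SE 0.16, unadjusted p = 0.0382 and adjusted p = 0.117 in limma). MiR-26b-5p had 0.27 (SE 0.14, adjusted p = 0.254) with an interval of -0.11 to 0.64, so that a difference above 1.56-fold lies outside the interval. MiR-26b-3p had 1.36 (SE 0.87, adjusted p = 0.342) with an interval of -0.89 to 3.60. This value too rested on single SAT libraries, with 0.60 without SAT 19 (adjusted p = 0.600) and 2.25 without SAT 20 (adjusted p = 0.0650). It also moved with the offset, to 2.55 with the lowest value subtracted and 1 added before log2 and to 0.57 with a further 40 added. At this spread, a VAT/SAT difference of the passenger strand was not detectable.

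**Figure D2:**
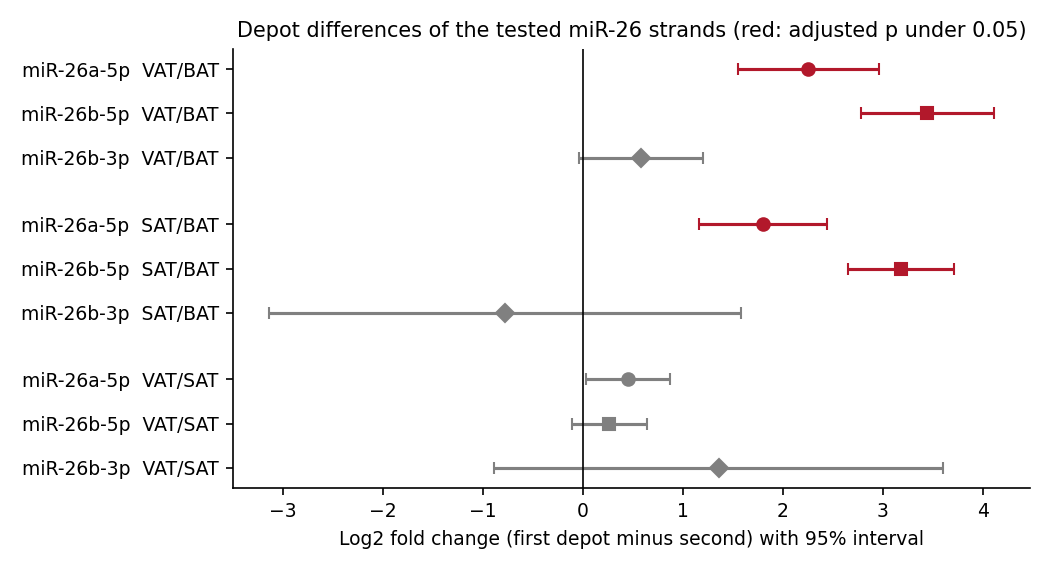
Log2 fold changes (horizontal axis, first depot minus second) of the 3 tested miR-26 strands in each comparison, with 95% intervals from limma as bars and red for an adjusted p under 0.05. The 4 values of the guide strands against BAT lie between 1.80 and 3.45, the VAT/SAT values of the same strands lie at 0.27 and 0.45, and the bars of miR-26b-3p are wide wherever SAT is involved.

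Since BAT 15, BAT 20 and VAT 20 had the highest miR-133a-3p, the comparisons were repeated without them, with the other 6 libraries in one fit. BAT 12, the only BAT library left, had miR-133a-3p at 10.10, close to the SAT libraries. The log2 fold changes in VAT/BAT were then 2.09 for miR-26a-5p and 3.05 for miR-26b-5p, and those in SAT/BAT were 1.70 and 2.85. With BAT 20 alone left out, the VAT/BAT changes were 2.03 for miR-26a-5p and 3.26 for miR-26b-5p, and the SAT/BAT changes were 1.58 and 3.00, all with adjusted p under 0.05 in limma. The fits with BAT 12 only rest on a single BAT library, so their changes are given without a test. In BAT 12, miR-26a-5p (15.30) and miR-26b-5p (9.65) were below every WAT library. The part of muscle in the differences between depots was not tested.

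**Figure D3:**
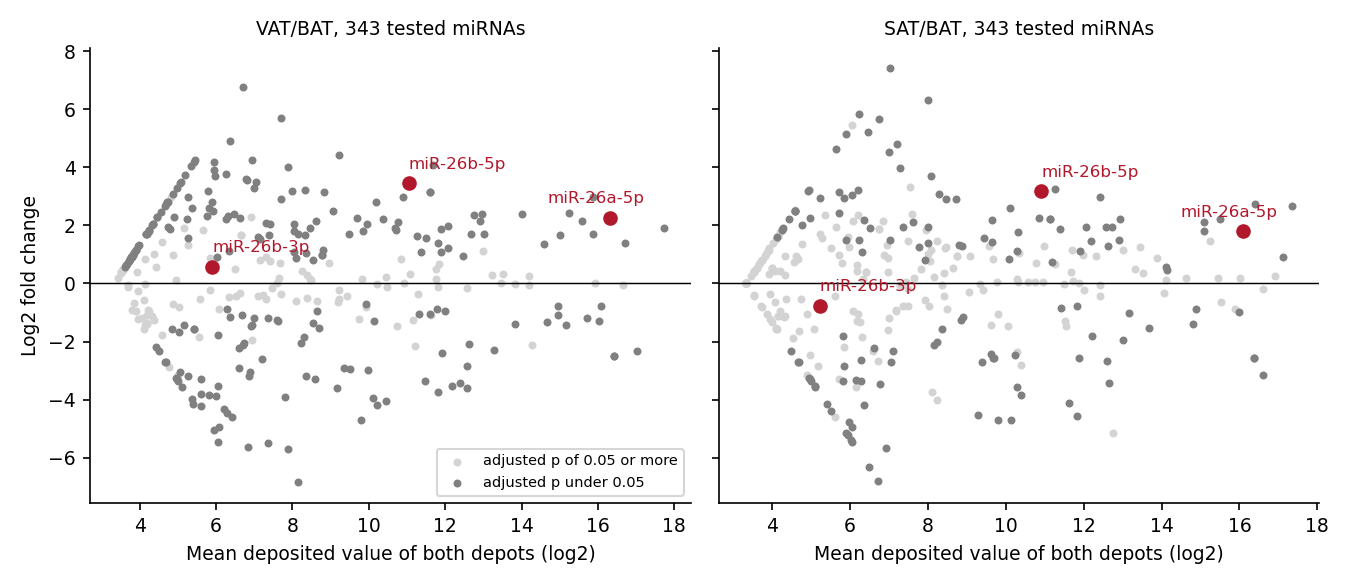
Log2 fold change (vertical axis) against the mean log2 value of both depots (horizontal axis) for the 343 tested miRNAs in VAT/BAT and SAT/BAT, with miRNAs at an adjusted p under 0.05 in darker grey and the 3 miR-26 strands in red. MiR-26a-5p stands at the far right among the most abundant miRNAs with changes of 2.25 and 1.80, miR-26b-5p in the middle with 3.45 and 3.18, and miR-26b-3p at the left with 0.58 and -0.78.

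Among the 20 miRNAs with the highest mean over the 9 libraries, miR-26a-5p was in place 3 by change towards VAT in VAT/BAT. Of the 20, 8 were called higher and 10 lower, with a median log2 fold change of -0.41. Over all 343 tested miRNAs, 39.4% were called higher and 26.8% lower, with a median of 0.40. In SAT/BAT miR-26a-5p was in place 5 of the 20, of which 7 were called higher and 6 lower, with a median of 0.17. There the 343 had 22.4% called higher and 18.1% lower, with a median of 0.26. MiR-191-5p, to which the study normalised its qPCR, had log2 fold changes of 0.00 in VAT/BAT and 0.17 in SAT/BAT. Relative to it, the SAT/BAT changes were 1.63 for miR-26a-5p and 3.01 for miR-26b-5p.

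The difference between both guide strands within a library does not depend on a scaling common to the library. It does depend on the rank of each strand, since the libraries had nearly equal values at equal ranks. The part of such a normalisation by rank in the differences between strands was not tested. On the log2 scale, miR-26a-5p exceeded miR-26b-5p by 5.65, 6.21 and 5.79 in BAT 12, 15 and 20, by 4.61, 4.40 and 4.51 in SAT 14, 19 and 20, and by 4.31, 5.08 and 4.69 in VAT 14, 17 and 20. Each BAT library had a larger gap than each WAT library. The excess ranged over 50.1- to 74.0-fold in BAT, 21.1- to 24.5-fold in SAT and 19.8- to 33.8-fold in VAT. The gap averaged 5.88 ± 0.29 for BAT, 4.51 ± 0.11 for SAT and 4.69 ± 0.39 for VAT (SD, n = 3 each). It was smaller than in BAT by 1.19 in VAT and by 1.38 in SAT, and a two-sided exact permutation test gave p = 0.1 for each, which is as low as 3 libraries against 3 can reach, and 0.15 after adjustment over 6 comparisons. VAT and SAT differed by 0.19 (exact permutation p = 0.6, adjusted p = 0.6). The linear values of both guides were summed with the lowest value subtracted from each. Of this sum, miR-26b-5p provided 1.31% to 1.93% in BAT, 3.92% to 4.52% in SAT and 2.87% to 4.80% in VAT. The log2 of that sum lay between 14.77 and 15.57 in BAT, between 16.97 and 17.26 in SAT, and between 17.27 and 17.64 in VAT, so the level of the shared seed followed miR-26a-5p closely.

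The arms of the Mir26b hairpin were compared in the same way. MiR-26b-5p exceeded miR-26b-3p on the log2 scale by 4.12, 4.03 and 2.98 in BAT 12, 15 and 20, by 8.03, 9.18 and 5.77 in SAT 14, 19 and 20, and by 6.81, 6.31 and 6.60 in VAT 14, 17 and 20. The lowest WAT library, SAT 20, was above the highest BAT library. The guide was thus 7.87- to 17.4-fold above its passenger in BAT and 79.3- to 112-fold in VAT. In SAT it was 54.6-fold above it in SAT 20 and 262-fold in SAT 14, and in SAT 19 the passenger was at the lowest value. The mean gap of 3.71 ± 0.64 in BAT widened by 2.86 in VAT (mean 6.57 ± 0.25) and by 3.95 in SAT (mean 7.66 ± 1.74; SD, n = 3 each). For both, the exact permutation test again gave p = 0.1, or 0.15 after adjustment over the same 6 comparisons. The SAT/BAT widening was 3.19 without SAT 19 and 4.90 without SAT 20. SAT and VAT overlapped, with a difference of -1.09 (VAT minus SAT, exact permutation p = 0.4, adjusted p = 0.48). This difference was -0.33 without SAT 19 and -2.04 without SAT 20. With the lowest value subtracted and 1 added before log2, the gap widened by 2.77 in VAT and 5.06 in SAT, and with a further 40 added by 3.02 and 3.33. The VAT minus SAT difference was -2.29 and -0.31 with these offsets.

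**Figure D4:**
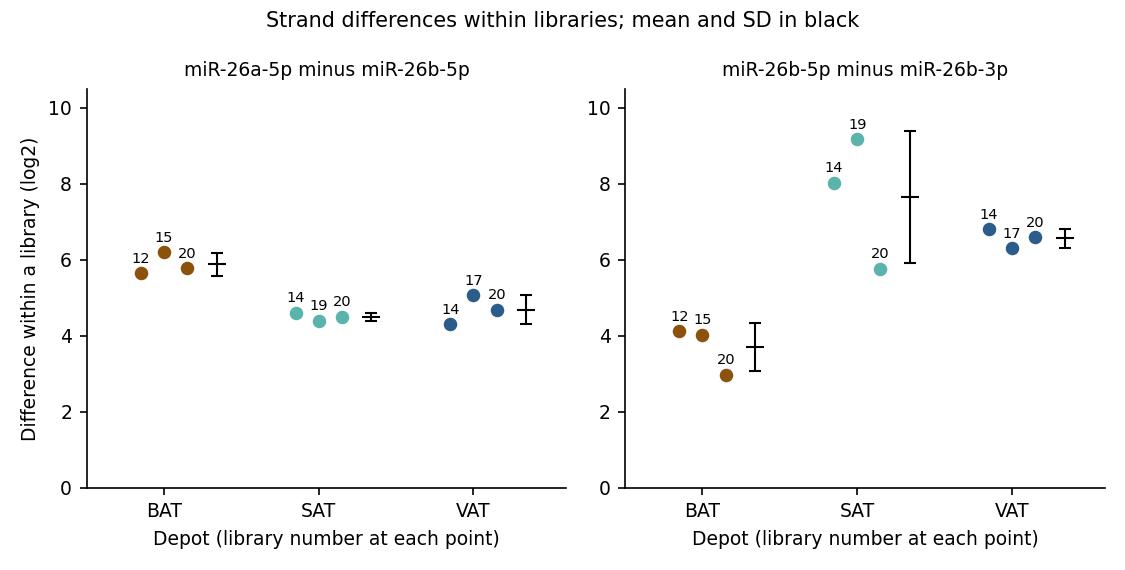
Differences between 2 strands within a library on the log2 scale (vertical axis), for miR-26a-5p minus miR-26b-5p (left) and miR-26b-5p minus miR-26b-3p (right), with the library number at each point and the mean and SD in black. The gap between the guides is wider in BAT (5.65 to 6.21) than in the WAT libraries (4.31 to 5.08), and the gap between the arms of Mir26b is narrower in BAT (2.98 to 4.12) than in the WAT libraries (5.77 to 9.18).

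Across the 9 libraries both guide strands moved together, with Pearson's r of 0.97, and miR-26b-5p was in place 6 of 342 tested miRNAs by likeness to miR-26a-5p. With miR-26b-3p the r was 0.02 for miR-26a-5p and -0.03 for miR-26b-5p, places 195 and 199 of 342. These correlations are descriptions over 9 libraries that fall into 3 depots and share almost the same set of values, and they were not tested. The 5 miRNAs most like miR-26a-5p were miR-143-3p (0.99), miR-34c-5p (0.99), miR-24-3p (0.99), miR-532-5p (0.98) and miR-146b-5p (0.98). Those most like miR-26b-5p were miR-143-3p (0.99), miR-223-3p (0.99), miR-532-5p (0.99), miR-130a-3p (0.99) and miR-34c-5p (0.99). All of them had lower means in BAT than in SAT, and lower means in SAT than in VAT. MiR-143-3p, which headed both lists, had mean log2 values of 14.04 in BAT, 16.14 in SAT and 16.46 in VAT, and log2 fold changes of 2.43 in VAT/BAT and 2.10 in SAT/BAT. MiR-26b-3p had no close match, and the highest r, that of miR-194-5p, was 0.69.

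**Figure D5:**
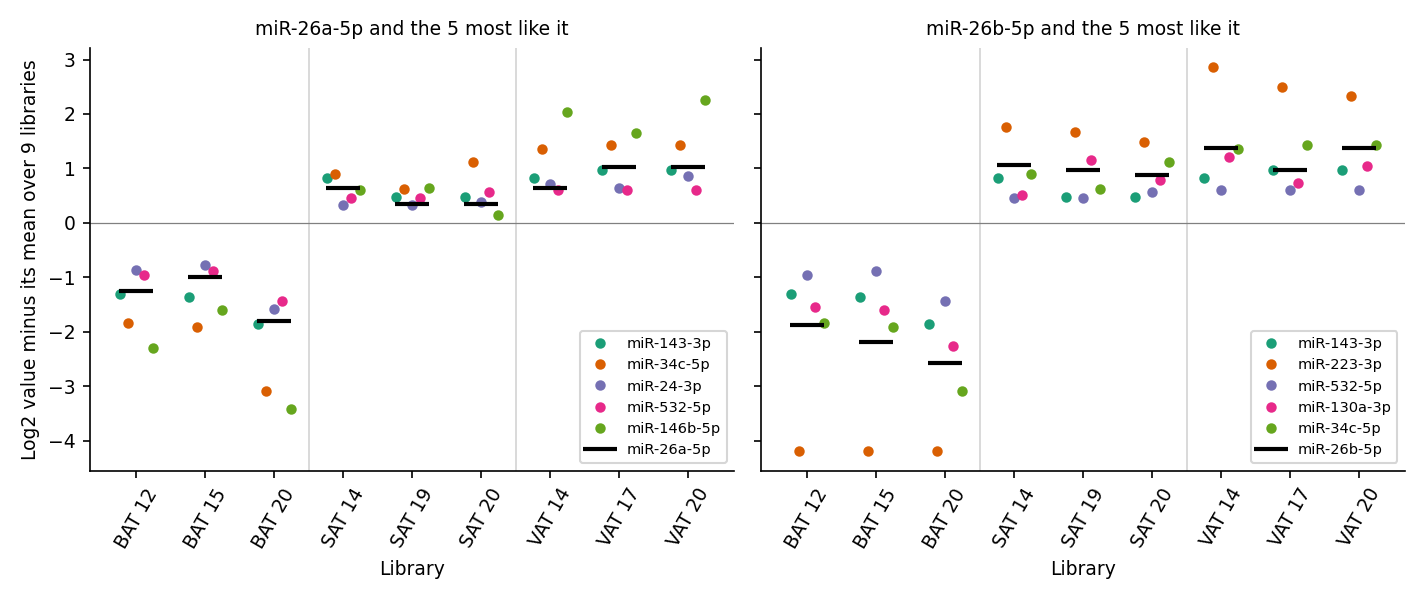
Log2 values minus their mean over the 9 libraries (vertical axis) for miR-26a-5p (left) and miR-26b-5p (right) as black bars and for the 5 miRNAs with the highest Pearson's r to each as coloured points, by library. All lie below their mean in the BAT libraries and above it in the SAT and VAT libraries, and miR-223-3p, at the lowest value in BAT, has the widest step.

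The guide strands were set beside other miRNAs with a described role in fat cell formation. Of 11 miRNAs described as promoting adipogenesis, all tested, 6 were called higher and 4 lower in VAT/BAT. In SAT/BAT 6 were called higher and 3 lower, and in VAT/SAT 2 higher and 2 lower. Over all tested miRNAs, VAT/BAT had 39.4% called higher and 26.8% lower. The shares were 22.4% and 18.1% for SAT/BAT, and 8.45% and 7.58% for VAT/SAT. Whether the counts of this list differ from such shares was not tested. The median of the 11 was 1.68 for VAT/BAT, 1.80 for SAT/BAT and 0.31 for VAT/SAT, against 0.40, 0.26 and 0.10 over all tested miRNAs. The largest changes in VAT/BAT belonged to miR-146b-5p (4.41), miR-21a-5p (4.09) and miR-143-3p (2.43). MiR-378a-3p, which is abundant in brown fat, was called lower, with -2.32 in VAT/BAT and -3.16 in SAT/BAT. The change of miR-26b-5p against BAT was thus above that of miR-143-3p in both comparisons. It was below those of miR-146b-5p and miR-21a-5p in VAT/BAT. In SAT/BAT miR-26b-5p had 3.18, miR-146b-5p 2.90 and miR-21a-5p 3.24. The differences between these miRNAs were not tested.

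Of 10 miRNAs described as opposing adipogenesis, 9 were tested, and 7 were called higher in VAT/BAT and 4 in SAT/BAT, with none called lower in either. Over all tested miRNAs, VAT/BAT had 39.4% called higher and 26.8% lower, while SAT/BAT had 22.4% higher and 18.1% lower. The median of the 9 was 1.57 for VAT/BAT, 0.67 for SAT/BAT and 0.91 for VAT/SAT, against 0.40, 0.26 and 0.10 over all tested miRNAs. MiR-130a-3p, a repressor of Pparg and among the miRNAs most like miR-26b-5p, had 2.80 in VAT/BAT and 2.62 in SAT/BAT. MiR-221-3p had 2.97 and 1.79. Of the 9, 4 were called higher in VAT/SAT, led by miR-22-3p (1.64), against 8.45% of all tested miRNAs. Neither miR-26 guide passed in that contrast.

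Markers of other cell types were compared as well. Over all 343 tested miRNAs, VAT/BAT had 39.4% called higher and 26.8% lower. The shares were 22.4% and 18.1% for SAT/BAT, and 8.45% and 7.58% for VAT/SAT. Whether the counts of these short lists differ from such shares was not tested. Of 6 leukocyte miRNAs 5 were tested, and 4 were called higher and 1 lower in VAT/BAT, 1 higher in SAT/BAT and 1 higher in VAT/SAT, where miR-223-3p was 1.91-fold higher in VAT. The 2 endothelial strands of miR-126 were called higher in both VAT/BAT and SAT/BAT, with log2 fold changes of 1.98 and 1.96 for miR-126-3p. Of 4 red cell miRNAs 3 were tested, with 2 called higher and 1 lower in VAT/BAT, 1 lower in SAT/BAT and 2 higher in VAT/SAT. In VAT/BAT, miR-451a (log2 fold change 2.21) and miR-144-5p (1.32) were higher in VAT, and miR-486-5p (-2.49) was lower. Of 6 muscle miRNAs 3 were tested, and 0 were called in limma or had an unadjusted p under 0.05 in any comparison. The summed level of the red cell miRNAs reached 17.68 in each BAT library, 14.86 to 15.28 in SAT and 14.94 to 15.87 in VAT. In BAT this sum was nearly all miR-486-5p, which was at 17.68 in each BAT library. MiR-451a had the other order, with 8.82 to 9.71 in BAT and 11.18 to 11.81 in VAT. MiR-144-3p was at the lowest value in every library. The summed level of the endothelial strands spanned 11.53 to 12.23 in BAT, 13.27 to 13.61 in SAT and 13.54 to 13.64 in VAT.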

How the data were processed

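Small RNA libraries from BAT, SAT and VAT (3 each) were analysed from the deposited table of miRNA values. Per the study's methods, the authors aligned reads with miRBase precursors, retained those on mature strands, split reads with several locations in proportion, and normalised to total usable reads with 40 counts added. On the deposited log2 scale the lowest linear value is 10, and libraries have nearly equal values at equal ranks, as after quantile normalization. The aligner and the miRBase version are not given in the sources used here. The submitters' processing notes name the build mm10, which matches GRCm38. Values were used as deposited. MiRNAs that exceeded the lowest value in 3 or more of 9 libraries were fitted in limma 3.58.1 (R 4.3.3), each comparison on its 6 libraries without covariates. The unmoderated test named by the study served as an alternative. Differences within a library were compared by exact permutation (scipy 1.17.1, Python 3.11.15). The labels do not say that libraries are from separate mice, so p-values measure the spread between libraries. Alternatives were other offsets, filters and scalings, fits of all 9 libraries, replicate blocks, no moderation and each library left out, and 2 sets of libraries left out that were chosen after seeing the data. The limma script was tested on simulated data. All members, the 5 miRNAs most like each guide, miR-191-5p and, of each list, up to 3 called miRNAs with the largest change could be named. MiR-133a-3p, miR-133b-3p, miR-206-3p, miR-1a-3p, miR-150-5p, miR-194-5p, the brown fat miRNAs and the list members at the lowest value were named after their values were seen. The members and lists were chosen with earlier results of these data known.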

Additional observations from a re-analysis of the deposited data

How the results depend on the processing

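For miR-26a-5p and miR-26b-5p, VAT/BAT and SAT/BAT kept their direction and stayed under an adjusted p of 0.05 in all 18 alternatives each, with a highest adjusted p of 0.0187 and 0.0404 for miR-26a-5p and 0.00635 and 0.00856 for miR-26b-5p. In VAT/SAT both stayed above the threshold in all 19. With each library left out, the VAT/BAT log2 fold changes were 2.03 to 2.43 for miR-26a-5p and 3.26 to 3.61 for miR-26b-5p. Those in SAT/BAT were 1.58 to 1.98 and 3.00 to 3.34. Other filters cannot move a log2 fold change, only its adjusted p. The common median and quantile normalization started from values already nearly equal at equal ranks. The alternatives therefore say little of the authors' own normalisation, and values before it were not available here. MiR-26b-3p in VAT/BAT (0.43 to 0.77 with each library left out) passed the threshold without BAT 20 and without the libraries numbered 20 (0.71), and in no other of 17 alternatives. It was not among the miRNAs with the higher mean, so that setting gave no value for it. The gap between the guides in VAT/SAT (-0.0079 to 0.38 with each library left out) turned to -0.0079 without VAT 17. The 4 pairs of libraries with a shared number in their titles had correlations of -0.14 to 0.27 once depot means were subtracted. Pairs with different numbers were not computed as a reference, so these values cannot decide whether the number pairs the libraries. A block by number over 6 libraries was possible in VAT/SAT alone, since BAT shares 1 number with each WAT. With the number as a replicate block, the VAT/SAT values were 0.45, 0.27 and 1.35 for miR-26a-5p, miR-26b-5p and miR-26b-3p, and 55 miRNAs were called with or without it. The block changed no call on a member. The depth of single libraries was not used here, so counting error was not separated from the spread between libraries.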
